A study of Mus musculus with 11 samples.

Results

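To examine what follows when the last intact copy of the olfactory Taar gene cluster is lost, the 4 homozygous libraries of a Taar2-9 cluster knockout line were compared with its 4 heterozygous libraries across every gene with enough counts to test. These 8 libraries are all those of the 2 deletion genotypes among the 11 libraries of the series, and the other 3 are wild type. Each library held polyA-selected total RNA of the whole main olfactory epithelium (MOE), the nasal tissue that houses the olfactory sensory neurons (OSNs). In the heterozygous mice the genes from Taar2 to Taar9 were deleted from 1 of the 2 copies of chromosome 10, and in the homozygous mice from both, so that both groups compared here carry the deletion. No other allele, agent or treatment was labelled. The labels give the C57BL/6 strain and an age of P1-P2, the first days after birth. The study's own reporting form lists an older age and a mixed background with 129 for this line, and which applies to these libraries was not settled here. The sex, the litters and the number of animals in a library are not labelled, so the p-values below measure the spread between libraries.

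Olfactory receptors are G protein-coupled receptors on the cilia of OSNs, and each OSN transcribes a single receptor gene from a very large repertoire. Most OSNs choose an odorant receptor (OR, Olfr) gene, while a small population, mostly but not only in the dorsal epithelium, chooses a Taar gene (trace amine-associated receptor), whose products detect volatile amines. OR and TAAR neurons share the same cAMP cascade, are born from basal stem cells and are surrounded by sustentacular cells, glands and glia. The deletion removes the receptor genes of a small group of neurons together with the DNA between them, including an enhancer of the Taar genes that lies in the interval (another is kept), and the comparison asks which other transcripts of the tissue differ between mice with 1 copy and mice with none.

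The deleted interval runs from Taar2 to Taar9 on chromosome 10 of mm10 (chr10:23938572-24109534 from the start of the former to the end of the latter in the GENCODE M21 annotation). The sequences around the annotated starts of 11 of the 14 olfactory Taar genes were found in RefSeq (GRCm38.p6, 250 bases before the start and 50 after it), and in each of the 11 the annotated start was an ATG. Shown here are the starts of the 4 genes with enough counts to be tested singly. In Taar5 and Taar6 the capitals mark the start codon, and in Taar7e and Taar7f they mark the 17 bases at the end of the window that were identical in the 4 windows of Taar7b, Taar7d, Taar7e and Taar7f.
Taar5 (chr10:23970456-23970755, plus strand): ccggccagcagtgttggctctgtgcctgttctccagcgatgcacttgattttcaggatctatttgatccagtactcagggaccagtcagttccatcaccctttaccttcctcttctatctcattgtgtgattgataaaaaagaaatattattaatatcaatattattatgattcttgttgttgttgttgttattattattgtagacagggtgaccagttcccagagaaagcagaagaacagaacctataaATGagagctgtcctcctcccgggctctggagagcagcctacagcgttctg
Taar6 (chr10:23985597-23985896, minus strand): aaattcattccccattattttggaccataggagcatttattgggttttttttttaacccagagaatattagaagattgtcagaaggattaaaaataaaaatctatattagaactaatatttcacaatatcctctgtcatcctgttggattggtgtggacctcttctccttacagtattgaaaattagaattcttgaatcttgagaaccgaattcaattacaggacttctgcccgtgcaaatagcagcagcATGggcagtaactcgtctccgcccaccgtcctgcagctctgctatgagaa
Taar7e (chr10:24037364-24037663, plus strand): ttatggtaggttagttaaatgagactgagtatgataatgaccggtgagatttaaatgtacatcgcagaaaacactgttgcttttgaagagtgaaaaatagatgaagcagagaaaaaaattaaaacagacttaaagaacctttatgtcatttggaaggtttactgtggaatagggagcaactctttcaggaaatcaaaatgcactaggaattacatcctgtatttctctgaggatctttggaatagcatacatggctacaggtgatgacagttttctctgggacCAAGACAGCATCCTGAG
Taar7f (chr10:24049260-24049559, plus strand): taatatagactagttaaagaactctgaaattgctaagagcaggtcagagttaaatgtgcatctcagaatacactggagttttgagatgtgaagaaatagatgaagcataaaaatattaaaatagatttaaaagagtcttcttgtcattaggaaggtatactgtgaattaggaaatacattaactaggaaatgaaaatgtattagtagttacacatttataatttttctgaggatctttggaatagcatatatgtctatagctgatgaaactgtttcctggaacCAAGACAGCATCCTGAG
The transcripts of Taar7e and Taar7f were 95.4% identical, so reads could be divided between them in counting and the values of single Taar7 genes are uncertain. Those of Taar8a and Taar8c were 98.1% identical, so the values of single Taar8 genes are uncertain too. The windows were searched on both strands for letters known from receptor and activity-dependent promoters. TAATTA, a core bound by homeodomain proteins such as Lhx2, was found in 1 of the 11 Taar windows (Taar8b), in 18.6% of 944 OR windows and in 5.29% of all 32544 windows. CCCNNGGG, the palindrome of Ebf factors, was found in 0 of the 11 Taar windows, in 3.07% of the OR windows and in 13.7% of all windows. These are letter matches in the windows and not measured binding. Since the annotated start is a start codon in each of the 11 Taar windows, these windows may not hold the promoters. Their shares may thus compare unlike regions.

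Counts of the deleted genes were near 0 in every homozygous library. The summed level of the 14 olfactory Taar genes, in CPM (counts scaled to a common library total after TMM normalisation), was 6.53, 6.98, 6.44 and 3.32 in heterozygous replicates 1 to 4. It was 0.0841, 0.109, 0.147 and 0.258 in homozygous replicates 1 to 4. The groups did not overlap, and even the lowest heterozygous library lay 12.9 times above the highest homozygous one. Fitted as 1 feature, the sum was lower in homozygous mice (log2 fold change -5.18 with an SE of 0.39 and a 95% confidence interval of -6.02 to -4.34, adjusted p = 2.65e-04, edgeR quasi-likelihood F-test). Since these genes are absent from the homozygous genome, the difference checks the labels of the libraries and is no independent finding. The sum rests on 284 counts in the 4 heterozygous and 7 in the 4 homozygous libraries. With the replicate number as a block the log2 fold change of the sum was -5.13 and its adjusted p 0.715, although the numbers did not pair the libraries.

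**Figure D1:**
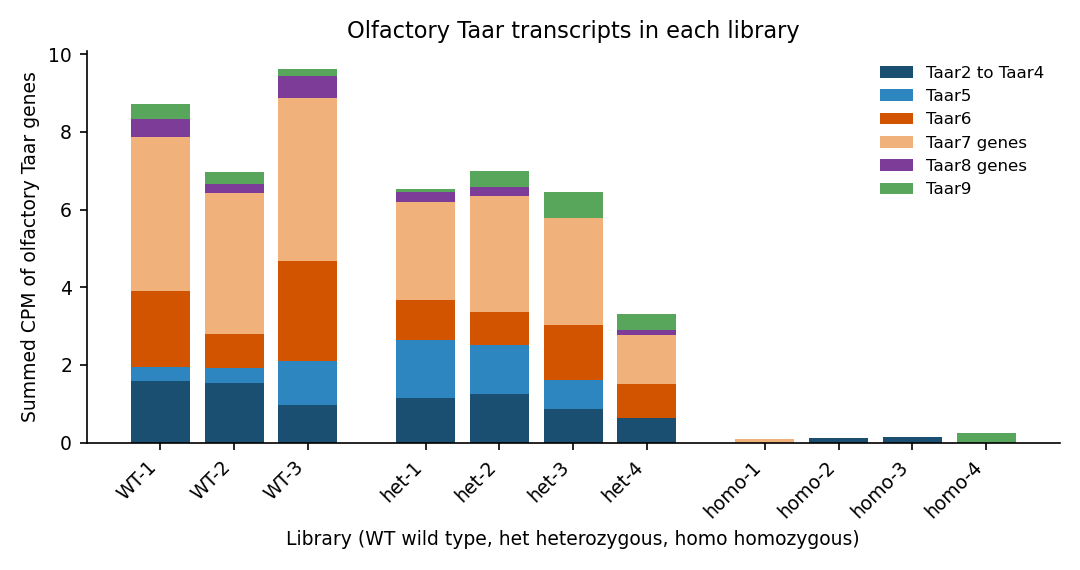
Summed CPM of the 14 olfactory Taar genes (vertical axis) in each of the 11 libraries (bars), with colours for the genes. The homozygous bars reach at most 0.258 CPM, whereas the heterozygous ones reach 3.32 to 6.98 CPM and the wild type ones 6.98 to 9.61 CPM.

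Counts were few for each gene of the cluster. Of the 14 genes, 11 had no count in any homozygous library. Taar8a had none in any of the 11 libraries, which may reflect how reads shared with the other Taar8 genes were counted. The 7 remaining counts came from Taar2 (3 counts, against 23 in the heterozygous libraries), Taar9 (3 against 17) and Taar7d (1 against 31). Taar2 and Taar9 are the genes at the ends of the deleted interval. All 3 Taar9 counts were in homozygous replicate 4, at 0.258 CPM, and the groups overlapped for this gene, with heterozygous replicate 1 at 0.068 CPM. Taar6 was measured at 1.02, 0.863, 1.42 and 0.856 CPM in heterozygous replicates 1 to 4, and at 0 in the 4 homozygous libraries. With a floor of 3 counts in each homozygous library, it was at least 3.93-fold lower. Taar5, a receptor for trimethylamine, was at 1.5, 1.26, 0.758 and 0 CPM in the heterozygous libraries and at least 3.32-fold lower in the homozygous ones. Heterozygous replicate 4 had no Taar5 count, so for this gene the groups touched at 0. The same bound was 2.44-fold for Taar7f and 1.54-fold for Taar7e. No bound could be set for Taar3, Taar7b, Taar8b and Taar8c, whose heterozygous means lay under the floor. In heterozygous mice, Taar6 gave 17.3% and Taar5 16.2% of the Taar counts, and Taar7d and Taar7f 10.9% each. At these counts only 4 of the genes, the ones whose starts are shown above, were kept by the filter on low counts, and they passed it through the groups that carry the genes.

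For the neighbours of the deletion no difference was found. Listed as flanking genes were Taar1, Vnn1, Vnn3 and Slc18b1 before Taar2, and Stx7 and Moxd1 after Taar9, 5 of which could be tested. Stx7, a syntaxin of endosomes, begins at position 24149302 and was at 59.6, 75.7, 87.2 and 80.7 CPM in the heterozygous against 79.8, 76.6, 67.3 and 62.8 CPM in the homozygous libraries. Its log2 fold change was -0.08 (SE 0.14, 95% confidence interval -0.38 to 0.22). That of Moxd1, a relative of dopamine beta-hydroxylase, was -0.00 (-0.37 to 0.37), and that of Slc18b1, a vesicular polyamine transporter, was 0.02 (-0.44 to 0.48). The pantetheinase genes Vnn1 and Vnn3 were low, at 0.344 to 3.70 CPM, with log2 fold changes of -0.24 (-1.03 to 0.54) and -0.16 (-1.16 to 0.83). The sign of all of these but Stx7 turned when single libraries were left out. Taar1, a family member that is not an olfactory receptor, had no count in any library. For all 5 the unadjusted p-value was above 0.05 and the groups overlapped.

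Across the transcriptome, no gene outside the deletion passed the test. Of 16574 tested genes, 0 (0.0%) reached an adjusted p-value under 0.05 in edgeR, where the lowest adjusted p was 0.272 (Taar6 and Taar7f). An unadjusted p-value under 0.05 was found for 93 genes (0.561%), with 53 higher (0.32%) and 40 lower (0.241%) in homozygous mice. If p-values were spread evenly, a fraction near 0.05 of the genes would lie under this threshold. Calls were rarer than that, so few or 0 calls in a list do not show a lack of change. DESeq2, run as the alternative, called 2 genes, Taar6 (adjusted p = 0.00223) and Taar7f (adjusted p = 0.041). The groups did not overlap, with every library of a genotype above every library of the other, for 99 genes (0.597%), of which 49 were higher (0.296%) and 50 lower (0.302%) in homozygous mice. Log2 fold changes were below 0 for 48.2% of genes, and their median was 0.01. The median standard error of a log2 fold change was 0.22.

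A single library weighed on these counts. In homozygous replicate 2 the 45S rRNA precursor Rn45s took 25.8% of all counts, against 0.0848% to 0.786% in the other 7 libraries of the 2 genotypes, and its TMM factor was the lowest (0.756). Depth was 9239866 to 14632525 counts over the 8 libraries, and without Rn45s this library held 9002381. Of the 53 genes higher in homozygous mice at an unadjusted p-value under 0.05, 31 were highest of the 4 homozygous libraries in replicate 2, and 13 kept such a p-value without it. Of the 40 lower genes, 22 did. Without this library 53 genes (0.321% of 16531) had an unadjusted p-value under 0.05, 35 of them shared with the fit of all libraries. On the first principal component the libraries also fell into 2 sets that cross the genotypes, with heterozygous replicates 3 and 4 and homozygous replicates 1 and 2 in the same set and the other 4 in another. With that set as a covariate, 227 genes had an unadjusted p-value under 0.05 and still 0 an adjusted one. Xist marked heterozygous replicate 3 and homozygous replicate 1, and Y-linked genes the other 3 libraries of each of these genotypes, while all 3 wild type libraries, which enter the estimate of spread and serve as reference ranges, were marked by Xist.

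Apart from the deleted receptors, the genes with the lowest p-values were of several kinds, and none passed adjustment (adjusted p = 1.0 for each, edgeR). Cxcl1, a neutrophil chemokine, was at 11.7 and 51.4 CPM in homozygous replicates 1 and 2 and at 0 to 1.02 CPM in the other 6 libraries. The log2 fold change of Cxcl1 was 4.97 (SE 1.49), which rests on those 2 libraries, and without replicate 2 the gene did not pass the filter. Zfp36, which encodes an mRNA-destabilizing protein induced with the immediate early genes, was at 64.6, 289, 62.9 and 45.8 CPM in the homozygous and 52.8, 28.6, 44.4 and 29.1 CPM in the heterozygous libraries. Its log2 fold change was 1.57 (SE 0.51), or 0.57 without homozygous replicate 2. Rn45s itself was at 341346 CPM in homozygous replicate 2 and at 813 to 7737 CPM in the other 7, and its log2 fold change was 4.86 (SE 1.6), or 0.28 without that library.

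Ror1 and Pou2af1 were among the genes of low p-value whose groups did not overlap. Ror1, a Wnt5a receptor, was at 23.3, 21.4, 27.3 and 24.6 CPM in the heterozygous and at 28.8, 30.6, 33.3 and 34.0 CPM in the homozygous libraries. Its log2 fold change was 0.39 (SE 0.13), or 0.40 when homozygous replicate 2 was left out. Pou2af1, a transcriptional coactivator of B cells and tuft cells, was at 0.314 to 0.428 CPM in the heterozygous and 0.587 to 1.2 CPM in the homozygous libraries (log2 fold change 1.27, SE 0.41). Wild type libraries spanned 0.323 to 0.882 CPM for this gene and 22.7 to 26.2 CPM for Ror1. Cyp2a4, a P450 enzyme, was at 15.4 and 12.4 CPM in homozygous replicates 3 and 4 and at 1.16 to 3.29 CPM in the 6 other libraries of these genotypes, so that its groups overlapped and its difference rests on those 2 libraries. Wild type libraries reached 5.37 CPM for Cyp2a4, which is a close relative of the abundant Cyp2a5, with which it may share reads.

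Among the lower genes, Muc5ac, a secreted mucin of the airway surface, was at 12.9, 13.4, 9.76 and 18.0 CPM in the heterozygous and 7.74, 6.43, 8.80 and 4.04 CPM in the homozygous libraries. Its groups did not overlap, and its log2 fold change was -1.0 (SE 0.33). Chil4, a chitinase-like protein, was at 0.884 to 3.0 CPM in the heterozygous and 0.436 to 0.757 CPM in the homozygous libraries. The wild type libraries overlapped both groups for Muc5ac, from 5.28 to 14.8 CPM, and only the heterozygous group for Chil4, from 0.807 to 2.49 CPM. Snord72, a small nucleolar RNA, was at 0.476 to 1.33 CPM in the heterozygous and 0.218 to 0.505 CPM in the homozygous libraries (-1.49, SE 0.48).

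Immediate early genes, which neurons and other cells switch on within minutes of stimulation or stress, had the median farthest from 0 among the lists other than the deleted Taar genes when all 8 libraries were used, and it rested on homozygous replicate 2. All 10 listed genes were tested, and their median log2 fold change was 1.08, against 0.01 for all tested genes. Fos, Fosb, Junb, Egr1, Dusp1 and Ier2 were higher in homozygous mice at an unadjusted p-value under 0.05. That was 6 of 10, against 0.32% of all genes. Groups did not overlap for 0 of the 10, against 0.597% of all genes. Fos was at 13.6, 10.7, 20.0 and 19.2 CPM in the heterozygous and at 52.1, 226, 13.4 and 16.9 CPM in the homozygous libraries. Egr1 was at 31.5, 29.5, 78.8 and 83.1 CPM in the heterozygous and at 147, 529, 59.8 and 66.8 CPM in the homozygous libraries. Homozygous replicates 1 and 2 were thus high, while replicates 3 and 4 lay within or near the heterozygous range. Dusp1, a phosphatase that switches off MAP kinases, was at 56.6 to 87.8 CPM in the heterozygous libraries and at 109, 348, 67.8 and 78.4 CPM in the homozygous ones. Junb reached 228 CPM in homozygous replicate 2 and lay at 34.1 to 58.3 CPM in the other 7 libraries. Without replicate 2 the unadjusted p-value was above 0.05 for each of the 10 genes, and the median log2 fold change was 0.20, with 0.79 for Fos and 0.71 for Egr1. In the library set that held replicates 1 and 2, the summed level of the 10 genes averaged 1254 CPM in the homozygous and 357 CPM in the heterozygous pair. In the other set it averaged 298 and 259 CPM. Npas4, which responds mainly to neuronal calcium, had a log2 fold change of -0.09 (SE 0.47), and Arc of 0.43 (SE 0.31). The high library was also the one with the largest share of Rn45s, and the part of RNA handling or of the state of the tissue in this difference was not tested.

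**Figure D2:**
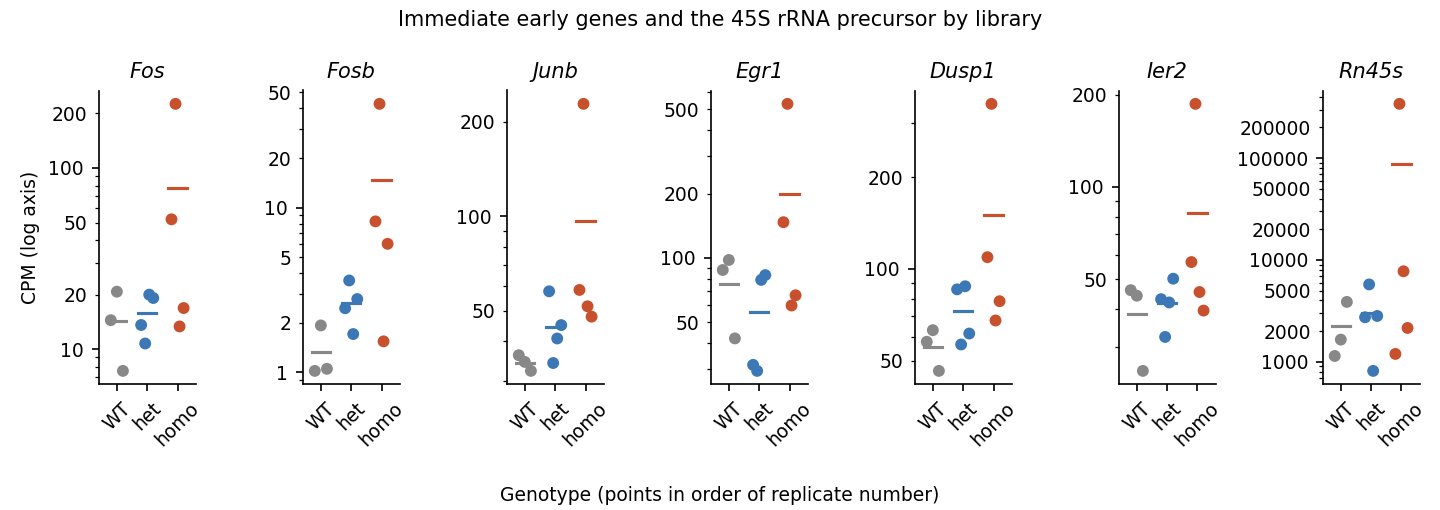
CPM (log axes) of 6 immediate early genes and the 45S rRNA precursor Rn45s in each library, by genotype, with points in order of replicate number and bars at the group means. Homozygous replicate 2, the second point of the homozygous group, is the highest in all 7 panels, with 226 CPM for Fos and 341346 CPM for Rn45s.

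The promoters of Fos and Dusp1 are shown because both genes were highest in the same library and carry the letters of the cAMP response element. They are the 250 bases before the RefSeq start (GRCm38.p6), with each TGACGT, on either strand, in capitals.
Fos (chr12:85473640-85473889, plus strand): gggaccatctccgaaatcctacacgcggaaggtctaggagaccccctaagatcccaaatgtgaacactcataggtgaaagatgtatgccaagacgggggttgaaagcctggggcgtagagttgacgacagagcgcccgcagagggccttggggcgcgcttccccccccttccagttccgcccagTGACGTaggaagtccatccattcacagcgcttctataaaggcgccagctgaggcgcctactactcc
Dusp1 (chr17:26508473-26508722, minus strand): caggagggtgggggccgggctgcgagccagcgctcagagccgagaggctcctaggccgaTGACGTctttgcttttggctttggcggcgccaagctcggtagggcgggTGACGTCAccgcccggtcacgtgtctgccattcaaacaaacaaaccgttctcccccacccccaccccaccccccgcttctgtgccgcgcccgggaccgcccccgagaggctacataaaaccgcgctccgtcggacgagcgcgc
In Dusp1 the match on the plus strand overlaps a match on the minus strand in the palindrome TGACGTCA. Of the 10 listed genes 7 had a RefSeq window of 300 bases around the start, and 3 of those held TGACGT (Fos, Npas4 and Dusp1), against 7.55% of all 32544 windows, 1.27% of the OR windows and 1 of the 11 Taar windows (Taar9). Npas4 thus held the letters at a log2 fold change near 0, and the window of Fosb did not hold them.

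OR genes, the receptor family that most OSNs choose from, had a family median slightly below 0, with no test of the family made. Of 1125 Olfr symbols, 568 were tested and 27 had no count in the 8 libraries. The median log2 fold change of the tested OR genes was -0.15, and 390 of 568 (68.7%) were below 0, against 48.2% of all tested genes. The middle 50% of OR genes lay between -0.38 and 0.06, and that of all genes between -0.10 and 0.09. Summed OR levels were 1138, 1283, 1194 and 901 CPM in the heterozygous and 1029, 799, 1171 and 1084 CPM in the homozygous libraries. The groups overlapped, and heterozygous replicate 4 and homozygous replicate 2 were the lowest of their groups. The mean was 9.61% lower in homozygous mice, at 1129 ± 163 CPM (SD, n = 4) against 1020.5 ± 159 CPM (SD, n = 4). Leaving out homozygous replicate 2 moved the median to -0.05, leaving out heterozygous replicate 2 also to -0.05, leaving out heterozygous replicate 4 to -0.26 and leaving out homozygous replicate 3 to -0.23. With both of the low libraries left out it was -0.14. In whole tissue, fewer OSNs and less receptor RNA per OSN cannot be told apart.

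OR medians are given here by class and chromosome as a description, with no test of the differences between them. Class I OR genes, the ancient group that sits in a single cluster on chromosome 7, had a median of -0.10 (32 of 50 below 0), and class II genes had -0.15 (356 of 516). Without homozygous replicate 2 these medians were 0.01 and -0.06, and without heterozygous replicate 4 they were -0.30 and -0.25. By chromosome, the median was -0.31 on chromosome 1 (17 genes), -0.30 on chromosome 9 (50 genes), -0.30 on chromosome 10 (35 genes) and -0.26 on chromosome 2 (122 genes). On chromosome 2, 100 of the 122 were below 0, and on chromosome 10, which also carries the deletion, 28 of 35 were. By contrast, chromosome 11 had a median of 0.04 (54 genes) and chromosome 4 a median of 0.09 (15 genes), which became -0.05 and -0.06 without heterozygous replicate 4. OR genes of low level had lower values, with a median of -0.24 in the 189 lowest by mean CPM and -0.11 in the 190 highest, or -0.14 and 0.01 without homozygous replicate 2, and no difference between these groups was tested.

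Few single OR genes stood out, and none passed adjustment (adjusted p = 1.0 for each, edgeR). At an unadjusted p-value under 0.05, 8 OR genes were lower and 1 higher, 1.58% of those tested against 0.561% of all genes. Groups did not overlap for 11 OR genes, 9 lower and 2 higher (1.94% against 0.597%). Olfr920 was at 2.65, 3.69, 1.23 and 2.14 CPM in the heterozygous and 1.01, 1.2, 0.880 and 0.516 CPM in the homozygous libraries, a log2 fold change of -1.44 (SE 0.45, edgeR). Olfr485 was at 1.56, 1.41, 1.33 and 1.61 CPM against 0.589, 0.872, 0.660 and 0.775 CPM (-1.03, SE 0.37). The heterozygous libraries were thus higher throughout, but wild type libraries ranged from 0.641 to 2.02 CPM for Olfr920 and from 0.565 to 1.95 CPM for Olfr485, across both groups. Olfr419, Olfr1448, Olfr1252, Olfr125, Olfr165 and Olfr16 had log2 fold changes of -0.68 to -1.17, each at most 1.97 CPM in all 8 libraries. Olfr986 was the single higher one (0.87, SE 0.37), with 0.321 to 0.748 CPM in heterozygous and 0.763 to 1.46 CPM in homozygous mice, and wild type libraries at 0.927 to 1.52 CPM. The most abundant OR gene by mean CPM, Olfr536, was at 35.8, 51.8, 46.5 and 36.4 CPM against 38.2, 33.6, 44.5 and 37.8 CPM (-0.15, SE 0.16).

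Genes of the signalling cascade of OSNs also had a list median slightly below 0, and no test of the list was made. The 12 listed transduction genes had a median log2 fold change of -0.11, with 10 below 0, against 48.2% of all tested genes. An unadjusted p-value under 0.05 was found for 0 of the 12, against 0.561% of all genes. The median of the list was -0.04 without homozygous replicate 2 and -0.17 without heterozygous replicate 4. Gnal, the olfactory G protein subunit, was at 351, 351, 478 and 297 CPM in the heterozygous and 387, 297, 346 and 316 CPM in the homozygous libraries (-0.13, SE 0.18). The other members ranged from -0.23 (Pde4a) to 0.13 (Slc24a4), with -0.11 for the cyclic nucleotide-gated channel subunit Cnga2 and -0.06 for the adenylyl cyclase Adcy3. Omp, the marker of mature OSNs, was at 533, 508, 552 and 414 CPM in the heterozygous and 451, 346, 494 and 524 CPM in the homozygous libraries (-0.15, SE 0.22, 95% confidence interval -0.63 to 0.34). For the 10 mature neuron genes the median was -0.09, with -0.13 for the receptor transporter Rtp1 and 0.05 for Gfy. Here too heterozygous replicate 4 and homozygous replicate 2 were the lowest libraries of their groups, with summed levels of 2322 and 2027 CPM. The median of the mature neuron genes was -0.17 without the former and 0.01 without the latter.

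Genes that govern receptor choice had values near 0. The 20 listed regulators, from the enhancer-binding factors Lhx2, Ldb1 and Ebf1 to the demethylase Kdm1a and the feedback factors Eif2ak3 and Atf5, had log2 fold changes between -0.12 and 0.23, with a median of 0.03 and 0 at an unadjusted p-value under 0.05, where the share over all genes was 0.561%. Lhx2 was at 320 ± 46.3 CPM in the heterozygous and 338 ± 51.7 CPM in the homozygous libraries (SD, n = 4 each). The 95% confidence interval of Atf5 was -0.37 to 0.37. That of Ldb1 was wider, at -0.71 to 1.11 around a log2 fold change of 0.20. Zonal markers had a median of 0.06, with -0.23 for the dorsal enzyme Nqo1 and 0.23 for Nfix. Axon guidance genes, which steer OSN axons to the olfactory bulb, had a median of -0.04, between -0.11 (Sema3a) and 0.14 (Kirrel2).

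**Figure D3:**
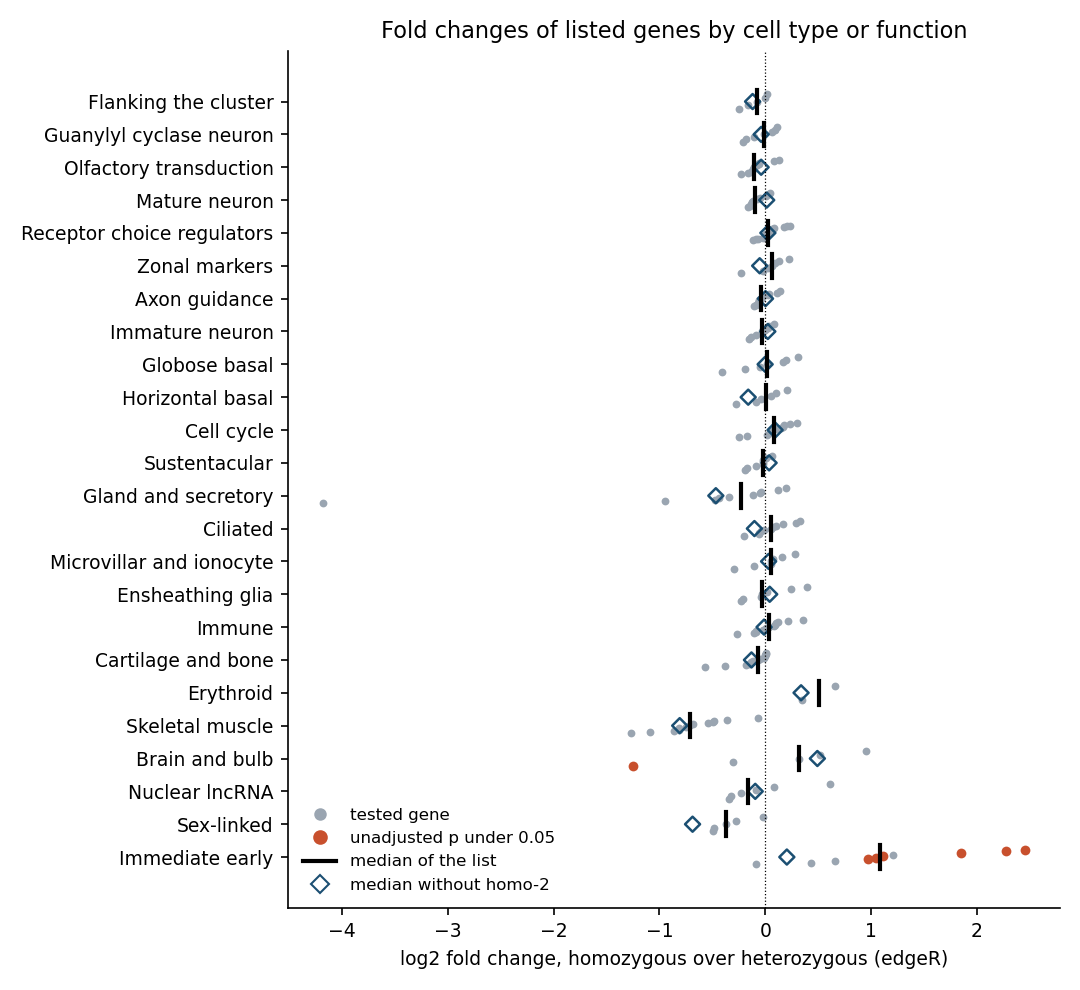
Log2 fold change, homozygous over heterozygous, of each tested gene (points) in 24 lists, with red for an unadjusted p-value under 0.05, bars at the list medians and diamonds at the medians without homozygous replicate 2. Most lists lie close to 0. The immediate early list has a median of 1.08 that falls to 0.20 without that library, and the muscle list has a median of -0.72.

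Medians of the neuronal lineage lists were near 0 with all 8 libraries. Signs of such small medians are not stable, since those of the choice regulator, zonal, axon guidance, immature neuron, globose basal, sustentacular, glia, immune and ribosomal lists turned when homozygous replicate 2 or heterozygous replicate 4 was left out, within -0.11 to 0.09. Immature neuron genes had a median of -0.03 (9 genes, -0.15 to 0.08), with Stmn2 at 397 ± 34.7 CPM in the heterozygous and 396 ± 27.2 CPM in the homozygous libraries (SD, n = 4 each). Globose basal cell genes, which mark the dividing progenitors, had a median of 0.01. Among them the proneural factor Neurog1 was at 0.20 (SE 0.26) and Tex15 at -0.41 (SE 0.31). The horizontal basal stem cell list had a median of 0.01, which was -0.16 without homozygous replicate 2 and 0.38 without heterozygous replicate 4, with Krt5 at 35.6, 35.9, 36.9 and 96.8 CPM in the heterozygous and 43.6, 72.1, 34.8 and 42.3 CPM in the homozygous libraries. Of 12 cell cycle genes 10 were above 0, against 8580 of all 16574 tested genes, and the median was 0.08. For 0 of the 12 was the unadjusted p-value under 0.05, against 0.561% of all genes. Mki67 was at 0.06 (95% confidence interval -0.18 to 0.30).

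Support and gland cells varied more between libraries than between genotypes. Sustentacular genes, which encode the detoxifying enzymes of the epithelium, had a median of -0.02 and summed to 4052 to 5333 CPM in the heterozygous and 3458 to 6225 CPM in the homozygous libraries. Among 105 Cyp symbols 39 were tested, and Cyp2a4 was the only one at an unadjusted p-value under 0.05 (2.56% against 0.561% of all genes). Gland and secretory genes had a median of -0.23, with 8 of 10 below 0. Bpifb9b, a secreted BPI-fold protein, was at 25189 CPM in heterozygous replicate 4, where the list summed to 35039 CPM, and at 2979 to 10999 CPM in the other 7 libraries. Without heterozygous replicate 4 the median of the list was 0.35, and without homozygous replicate 2 it was -0.47. The odorant-binding protein gene Obp1a reached 76.1 CPM in a heterozygous library and at most 1.85 CPM in homozygous ones (-4.18, SE 1.99), with overlapping groups and an unadjusted p-value above 0.05, and its fitted value was 4.81 without heterozygous replicate 4. Ciliated cell genes had a median of 0.05, which was -0.10 without homozygous replicate 2 and 0.24 without heterozygous replicate 4. Microvillar and ionocyte genes had a median of 0.06, with -0.29 (SE 0.17) for Coch, 0.06 (SE 0.27) for Trpm5 and 0.16 (SE 0.23) for Pou2f3.

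**Figure D4:**
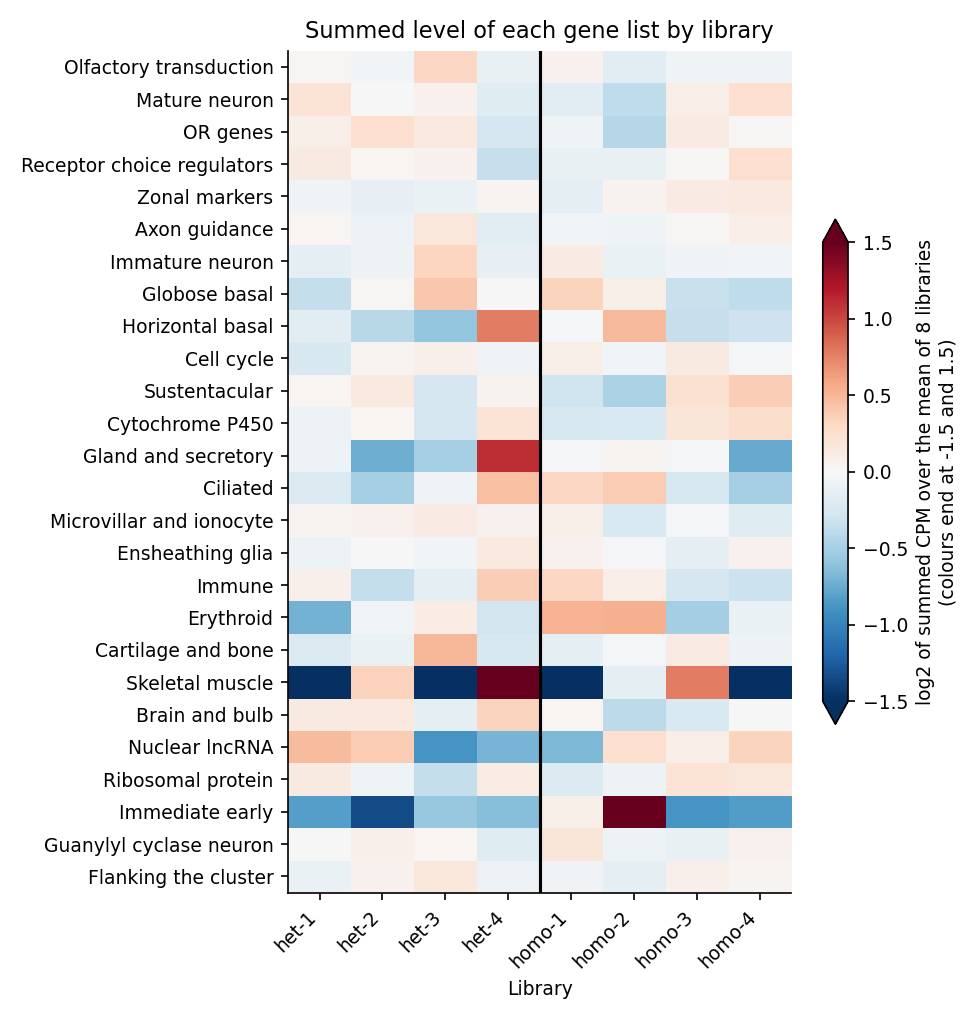
Log2 of the summed CPM of each gene list (rows) in each library (columns) over its mean in the 8 libraries, with heterozygous libraries left and homozygous libraries right of the line. Heterozygous replicate 4 stands out for muscle (2095 CPM) and gland genes (35039 CPM), and homozygous replicate 2 for immediate early genes (1931 CPM).

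RNA of cells from around the epithelium differed between libraries of the same genotype. Skeletal muscle genes summed to 56.9, 748, 39.6 and 2095 CPM in the heterozygous and 169, 538, 1006 and 61.9 CPM in the homozygous libraries. All 14 were below 0, with a median of -0.72, and for each the unadjusted p-value was above 0.05. Without heterozygous replicate 4 all 14 were above 0, with a median of 0.57, so that the sign rests on this library. The same library was the lowest of its group for OR and mature neuron genes, and the part of other tissue in those levels was not tested. Cartilage and bone genes had a median of -0.07, which was -0.13 without homozygous replicate 2 and -0.16 without heterozygous replicate 4. Macrophage and other immune genes had a median of 0.03, with Csf1r at 0.09 (SE 0.11) and Lyz2 at -0.26 (SE 0.34), and ensheathing glia genes a median of -0.03. The brain and bulb list had a median of 0.32, with 3 of 5 tested genes above 0, and an unadjusted p-value under 0.05 for 1 of them (0.561% of all genes). That gene, the astrocyte gene Gfap, lay on the other side and was at 15.3, 14, 3.41 and 1.61 CPM in the heterozygous and 3.28 to 4.04 CPM in the homozygous libraries (-1.25, SE 0.56), and its high values came from heterozygous replicates 1 and 2. Of the erythroid genes, Hba-a1, Hba-a2, Hbb-bs and Hbb-bt had no count in any of the 8 libraries. The treatment of multi-mapped reads is not known, so these zeros do not show that blood RNA was absent. Alas2 was at 8.09 to 14.1 CPM in the heterozygous and 8.73 to 19.1 CPM in the homozygous libraries. Nuclear long noncoding RNAs had a median of -0.16, and Meg3 followed the library sets, with 1326 and 1338 CPM in heterozygous replicates 1 and 2 and 420 and 425 CPM in replicates 3 and 4. Among 81 tested genes of cytoplasmic ribosomal proteins the median was 0.02, and 0 had an unadjusted p-value under 0.05, against 0.561% of all genes.

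Other chemosensory receptor systems stayed at low levels in both groups. Guanylyl cyclase neurons use Gucy2d and Ms4a proteins in place of ORs and TAARs. The list for them had 7 tested genes with a median of -0.01. Its most abundant member was Pde2a, at 32.9 to 51.6 CPM, and in whole tissue the listed genes may be read from other cells as well. Gucy2d was at 2.89 to 5.02 CPM in the heterozygous and 1.85 to 5.77 CPM in the homozygous libraries. Of 211 Vmn1r symbols 0 passed the filter, and their summed level was 1.61 to 5.10 CPM in the heterozygous and 1.77 to 3.52 CPM in the homozygous libraries. Of 127 Vmn2r symbols 3 did, with log2 fold changes of -0.67 to 0.04. The vomeronasal channel gene Trpc2 had no count. Whether its reads were lost in counting was not tested, so this does not show that vomeronasal neurons were absent.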

How the data were processed

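RNA was measured by RNA-seq in 11 libraries of whole MOE, of which 8 were compared here. Per the labels and methods, the authors trimmed reads with Trimmomatic 0.36, aligned them to mm10 with HISAT2 2.1.0 and counted them per gene with featureCounts of Subread 1.6.2; the annotation, strand setting and treatment of multi-mapped reads are not given in the sources used here. The deposited raw counts (24421 symbols) carry every value. A second deposited table holds a normalised signal for 23129 of these, the count divided by a DESeq2 1.20.0 size factor, and served as a check and as a list of symbols. All 11 libraries were fitted with edgeR 4.0.16 in R 4.3.3 (filterByExpr, TMM scaling, quasi-likelihood F-test, Benjamini-Hochberg adjustment, threshold 0.05), so that wild type libraries add to the estimate of spread. DESeq2 1.42.0, other scalings, filters and covariates, and leaving out each library were the alternatives. Fits were tested on simulated counts with a single dispersion, without Rn45s and without library sets or an outlying library. That test does not cover these features of the data. Named genes were the Taar and flanking genes, the 8 tested genes of lowest p-value in each direction, list members at an unadjusted p-value under 0.05, the 2 members of each list with the highest mean level, and the 5 OR genes of lowest p-value; other members are named as examples, chosen after their values were seen. The members and lists were chosen with earlier results of these data known. Depth was 9239866 to 14632525 counts, and a count of 0 was given a floor of 3 counts, which covers counting error only; the confidence intervals come from the fit and include the spread between libraries. Coordinates are from GENCODE M21 and sequences from RefSeq GRCm38.p6.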

Additional observations from a re-analysis of the deposited data

Results flagged for a closer look

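Among 122 groups of 4 libraries, 14 held a library far from the other 3 of its genotype by Dixon's ratio of gap to range. Chance gives about 1 in 20 independent groups, a rate that does not apply to the genes here, many of which were named for low p-values that homozygous replicate 2 drove. Of the 14, 7 came from that library, and Rn45s counts under 2 measures. In that library Rn45s took 25.8% of counts, with 0.786% as the next value, and stood at 341346 CPM (next 7737). It was also far above the others for Fosb at 42.6 CPM (next 8.24), Zfp36 at 289 CPM (next 64.6), Junb at 228 CPM (next 58.3), Dusp1 at 348 CPM (next 109) and Ier2 at 187 CPM (next 56.9). Heterozygous replicate 4 had the lowest summed Taar level of its group, 3.32 CPM, with 6.44 CPM as the next. Heterozygous replicate 3 was high in the summed immature neuron genes (2303 CPM, next 1756) and in cartilage and bone genes (15718 CPM, next 10396). Summed gland genes were lowest in homozygous replicate 4, at 9605 CPM (next 15927). The sex-linked list was highest in heterozygous replicate 3 (1684 CPM, next 304.8) and homozygous replicate 1 (1389 CPM, next 213.9), where Xist made up nearly the whole sum. Olfr165 was highest in homozygous replicate 3, at 0.513 CPM (next 0.344).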

How the results depend on the processing

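The loss of the Taar sum kept its direction in every alternative, with log2 fold changes of -5.54 to -4.99 as single libraries were left out, but it missed the threshold with the replicate number as a block (-5.13, adjusted p = 0.715) and without the 4 libraries of most muscle RNA (-5.17, adjusted p = 0.115), where fewer libraries or degrees of freedom remain. Same-numbered heterozygous and homozygous libraries correlated at -0.585 to -0.396, so the numbers do not pair the libraries. DESeq2 called 2 genes, and the other fits 0. The count of genes at an unadjusted p-value under 0.05 was 206 with no filter, 18 with the block, 227 with library set as a covariate and 39 without the muscle libraries, and 53 to 180 as single libraries were left out (53 without homozygous replicate 2, 180 without heterozygous replicate 1, 177 without homozygous replicate 1). Values near 0 changed sign for flanking genes. Slc18b1 was at -0.0087 with the block, -0.0041 with library set and -0.13 to 0.13 with single libraries left out. Moxd1 was at 0.00646 with the block, 0.013 with Xist as a covariate and -0.13 to 0.12. Vnn1 ranged from -0.45 to 0.093 and Vnn3 from -0.35 to 0.073, and the cause was not tested. Rn45s, at 4.86 with all libraries, was at -0.082 without the muscle libraries, which include homozygous replicate 2, and at 0.28 without that library alone. The OR median stayed between -0.26 and -0.05. The muscle libraries, the restriction to symbols of the normalised table and the omission of heterozygous replicate 4 with homozygous replicate 2 were chosen after seeing the data. Single Taar genes rest on at most 49 counts over the 4 heterozygous libraries, which limits their precision.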
